A study of Mus musculus with 8 samples.

Results

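Matrix metalloproteinases (Mmp genes), the secreted ADAMTS proteases (Adamts), the ADAMTS-like proteins (Adamtsl) and the tissue inhibitors of metalloproteinases (Timp) were followed across bones of the mouse skeleton. Members were the protein-coding genes whose mouse symbol is Mmp, Adamts, Adamtsl or Timp followed by a number and at most 1 letter. They came to 50 of the 43346 gene rows of the count table, with 22 Mmp, 19 Adamts, 5 Adamtsl and 4 Timp genes. RNA was sequenced from osteocyte-enriched bone fractions of C57BL/6 mice aged 12 weeks, with 3 libraries from the femur, 3 from the frontal bone and 2 from the parietal bone. The study asked how osteocyte transcriptomes differ between these bones, and frontal and parietal bone together are called calvaria here. Libraries carry the number in their description (femur 1, 2 and 4, frontal 1, 2 and 4, parietal 2 and 4). Separate animals are not stated in the labels, and the p-values here reflect the spread between libraries alone, which may be technical.

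Matrix metalloproteinases are zinc enzymes, made as inactive precursors, that cut collagens and other matrix proteins. ADAMTS proteases carry thrombospondin repeats and cut proteoglycans, procollagens and microfibril-associated proteins, while ADAMTS-like proteins have the repeats without a protease domain. TIMPs bind the active enzymes and block them. In bone these genes are known for resorption by osteoclasts, for removal of cartilage during growth, and for the remodelling of matrix around osteocytes.

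Total gene counts ran from 6259229 to 13461622 per library. Levels are given in CPM, each library's counts divided by its total after edgeR's TMM scaling, with no correction for gene length. The labelled cell type was checked against 8 osteocyte markers, all detected in every bone. Their summed level was 23817 to 49408 CPM in femur and 726 to 1411 CPM in calvaria, and 7 of the 8 were lower in calvaria. Dmp1 alone had a mean of 35310 of 40211 CPM in femur and 528 of 1145 CPM in calvaria. Summed levels of 11 neutrophil genes ran the other way, from 18605 to 45527 CPM in femur and from 59336 to 89735 CPM in calvaria, with 8 of the 11 higher in calvaria. In such bulk fractions, fewer cells of a type and less RNA per cell cannot be told apart, and the part of cell makeup in each difference below was not tested.

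Of the 50 members, 37 had enough counts to be tested, and the other 13 had at most 51 counts over all 8 libraries. Of the 37, 6 exceeded the filter's level of 1.086 CPM in fewer than 2 calvarial libraries and 4 in fewer than 2 femur libraries, with Mmp28 counted in both. Apart from Mmp28, these members entered the test through their higher group. That group was femur for Mmp10, Mmp17, Adamts18, Adamtsl2 and Adamtsl5, and calvaria for Adamts12, Adamtsl3 and Timp4. Most of the tested members were lower in calvaria than in femur. In edgeR's quasi-likelihood test, with Benjamini-Hochberg adjustment over 15511 genes and calls at an adjusted p under 0.05, 24 members were lower in calvaria, against a background of 31.4% of all genes tested. A further 3 (Mmp8, Mmp11 and Timp4) were higher, against a background of 29.6%, and 10 did not pass. The 24 lower members are 64.9% of those tested, and they include the members that entered through femur. The median log2 difference was -1.34 over the 37 tested members and 0.01 over all genes tested.

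**Figure D1:**
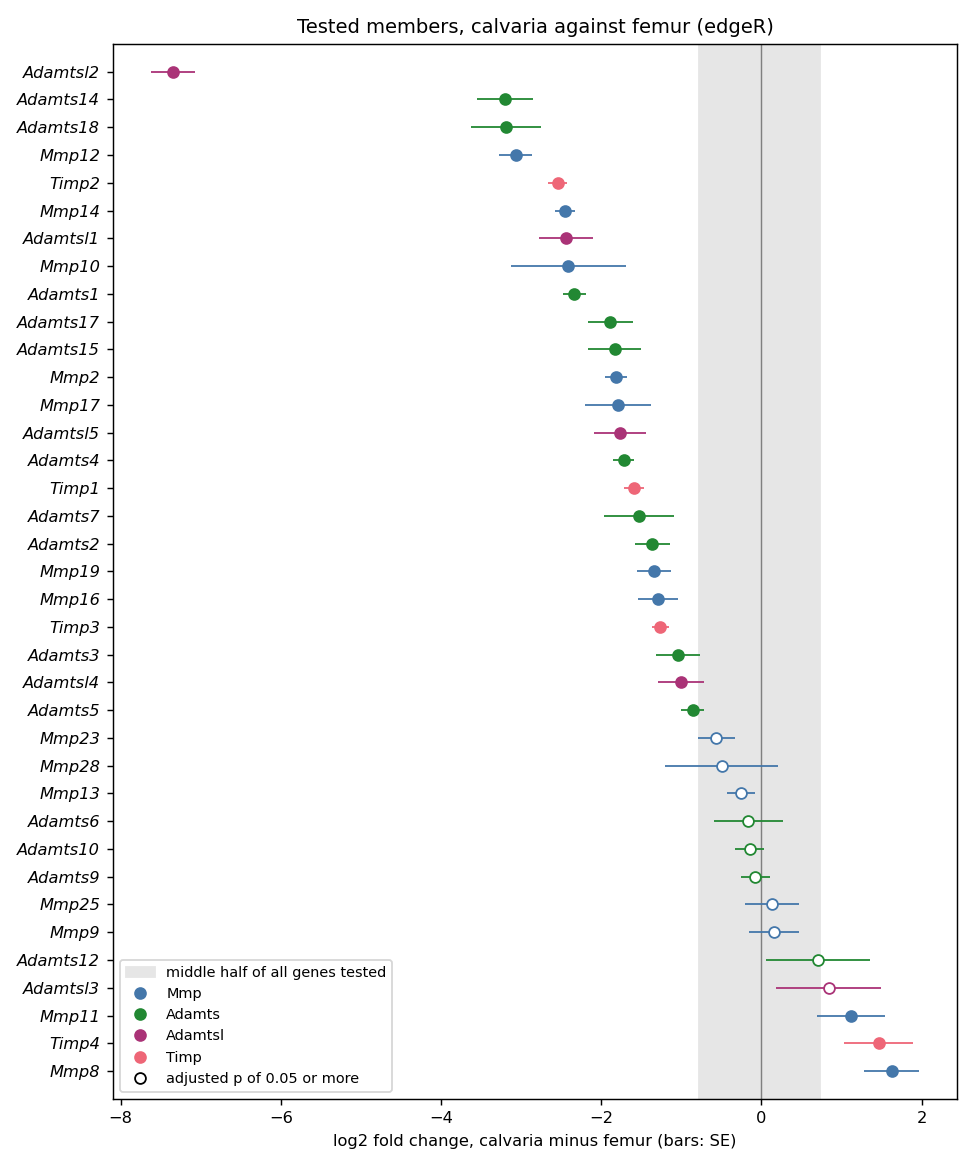
Log2 fold change (calvaria minus femur, x axis) of the 37 tested members, with bars for the standard error, filled points for an adjusted p under 0.05, and colour for the family. The grey band spans the 25th to 75th percentile of all 15511 genes tested (-0.78 to 0.73). Adamtsl2 lies at -7.35, and the members to the right of the band are Adamtsl3 (0.84, which did not pass), Mmp11, Timp4 and Mmp8.

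By family, 10 of 14 tested Adamts genes, 4 of 5 Adamtsl genes, 3 of 4 Timp genes and 7 of 14 Mmp genes were lower in calvaria. The background was 31.4% of all genes tested. These counts include Mmp10, Mmp17, Adamts18, Adamtsl2 and Adamtsl5, which entered the test through femur. Log2 differences of the tested Mmp genes ran from -3.07 (Mmp12) to 1.62 (Mmp8). Leaving out Mmp8, Mmp9, Mmp12 and Mmp25, the members known from blood cells, 23 of the remaining 33 were lower (background 31.4%) and 2 were higher (background 29.6%).

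A cluster of Mmp genes is shown next, because neighbours in it differed in direction. On chromosome 9, 9 Mmp genes lie between positions 7272514 and 7699585 (GRCm38, GENCODE M21): Mmp13, Mmp12, Mmp1b, Mmp3, Mmp10, Mmp8, Mmp27, Mmp20 and Mmp7, in that order. The promoter windows (250 bases before to 50 after a gene's start) of its 3 best covered genes follow, from RefSeq on GRCm38.p6, 5′ to 3′ on the gene's strand, which is the plus strand for all 3. Capitals mark TGANTCA, the letters bound by AP-1 factors, and TGTGGT, the core letters bound by RUNX factors, each searched on both strands. The AP-1 letters of Mmp13 begin 35 bases before its start and its RUNX letters, on the opposite strand, begin 118 bases before it.
Mmp13, chr9:7272264-7272563: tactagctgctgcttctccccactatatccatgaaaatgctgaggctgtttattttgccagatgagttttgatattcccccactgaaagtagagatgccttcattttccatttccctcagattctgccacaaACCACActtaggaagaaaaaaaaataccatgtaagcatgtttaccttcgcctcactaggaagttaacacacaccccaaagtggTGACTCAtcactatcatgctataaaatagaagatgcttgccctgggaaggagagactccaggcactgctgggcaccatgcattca
Mmp12, chr9:7347124-7347423: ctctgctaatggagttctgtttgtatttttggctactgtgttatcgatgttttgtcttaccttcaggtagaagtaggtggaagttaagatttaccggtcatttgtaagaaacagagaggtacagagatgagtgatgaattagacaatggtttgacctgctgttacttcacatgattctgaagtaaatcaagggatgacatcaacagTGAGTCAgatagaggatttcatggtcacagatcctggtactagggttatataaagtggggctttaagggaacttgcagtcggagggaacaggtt
Mmp8, chr9:7558179-7558478: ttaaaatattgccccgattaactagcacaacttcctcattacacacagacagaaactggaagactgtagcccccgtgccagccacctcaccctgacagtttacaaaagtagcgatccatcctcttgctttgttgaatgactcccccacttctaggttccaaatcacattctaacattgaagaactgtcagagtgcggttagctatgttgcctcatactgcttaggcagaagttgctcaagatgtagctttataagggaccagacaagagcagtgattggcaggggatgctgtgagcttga

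Neither motif is in the window of Mmp8, and the other RefSeq window of Mmp12 has neither. Windows were found for 35 of the 50 members. AP-1 letters were in the windows of 7 of them, all from the cluster (Mmp13, Mmp12, Mmp1b, Mmp3, Mmp10, Mmp20 and Mmp7), while 7.81% of the 32851 windows in the table hold them. RUNX letters were in 6 (Mmp13, Mmp14, Mmp1b, Mmp23, Mmp27 and Mmp7), beside 16.8% of all windows. A match is a description of the letters, not of a site in use.

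**Figure D2:**
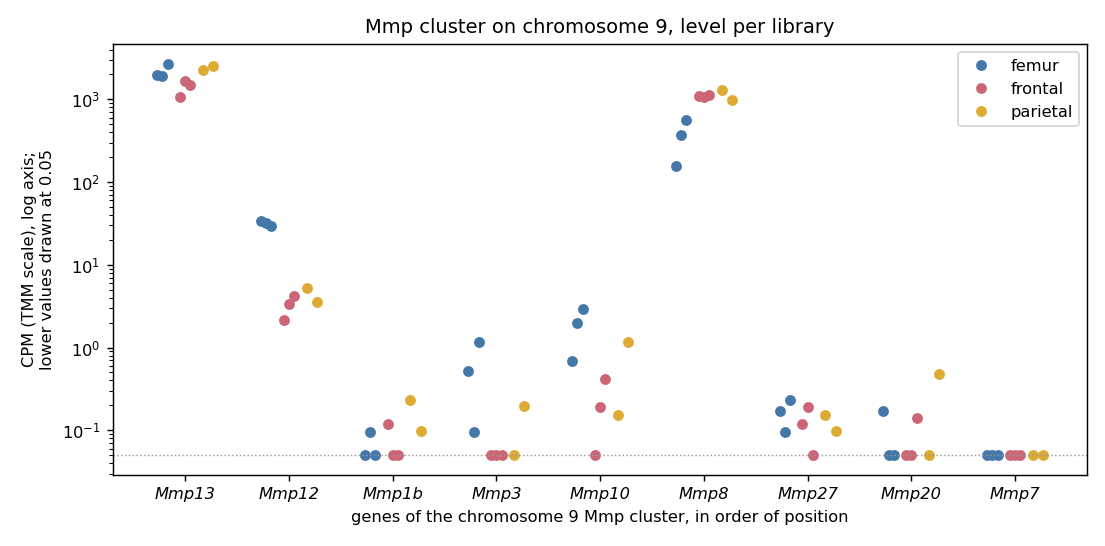
Level per library (CPM on a log axis, values under 0.05 drawn at 0.05) of the 9 Mmp genes of the chromosome 9 cluster, in order of position (x axis), with colour for the bone. Mmp13 and Mmp8 are the high genes, Mmp12 is higher in all 3 femur libraries than in any calvarial one, and Mmp7 has no count in any library.

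Mmp13 (chromosome 9, 7272514 to 7283331), the main interstitial collagenase of mouse bone, was the most abundant member per kilobase of exon in every bone. Its level was 1996, 1907 and 2711 CPM in femur 1, 2 and 4, and 1064, 1681 and 1487 CPM in frontal 1, 2 and 4. Parietal 2 and 4 had 2253 and 2550 CPM. Every frontal library was below every femur library, and the parietal libraries lay within the femur range. The log2 difference of calvaria from femur was -0.26 ± 0.17 (SE) with an edgeR adjusted p of 0.215. It was -0.64 ± 0.19 (adjusted p 0.0147) for frontal and 0.12 ± 0.22 (adjusted p 0.65) for parietal bone against the same femur libraries. The frontal difference no longer passed without femur 4 (adjusted p 0.0529), without frontal 1 (adjusted p 0.0642) or with scaling by library size alone (adjusted p 0.0549). With a trend over gene length and GC content removed, the calvarial difference passed, at -0.76 (adjusted p 0.00209).

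The other tested collagenase, Mmp8 (chromosome 9, 7558456 to 7568485), is the collagenase that neutrophils store in granules. Femur 1, 2 and 4 had 156, 367 and 567 CPM of it, frontal 1, 2 and 4 had 1091, 1080 and 1124 CPM, and parietal 2 and 4 had 1314 and 979 CPM. All 5 calvarial libraries were above all 3 femur libraries, which themselves differed several-fold. Mmp8 was 3.08-fold higher in calvaria, a log2 difference of 1.62 ± 0.34 (adjusted p 0.00234), with 1.59 ± 0.37 for frontal and 1.66 ± 0.39 for parietal bone. Without the filter on low counts, its adjusted p for calvaria was 0.0555. Of the other collagenases, Mmp1b had 6 counts in all libraries together. Mmp1a is listed as a polymorphic pseudogene in GENCODE M21 and so is no member; it had 14 counts, 12 of them in parietal libraries.

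**Figure D3:**
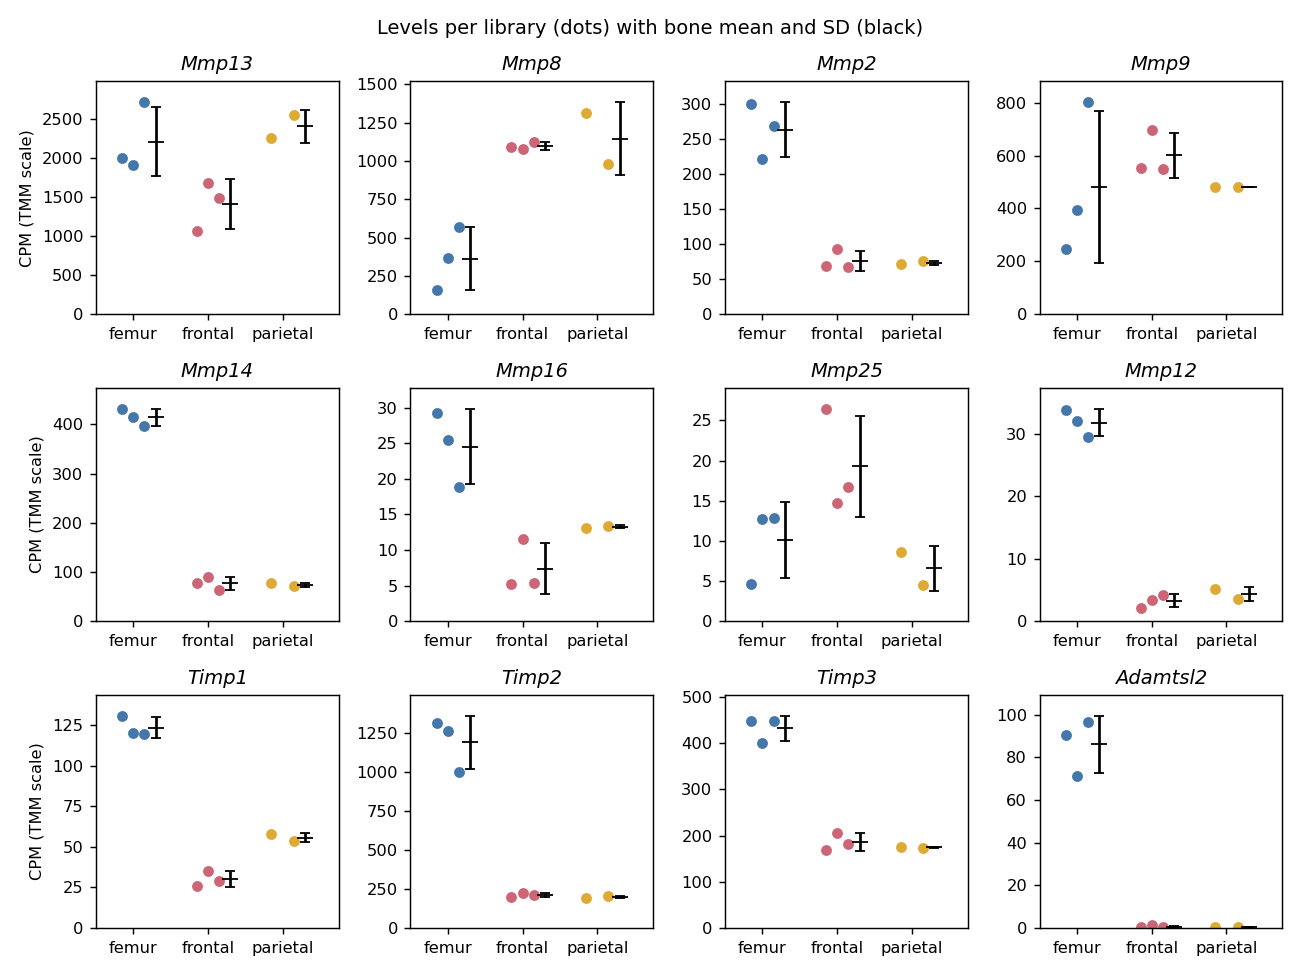
Level per library (CPM, y axis from 0) of 12 members in femur, frontal and parietal bone (x axis), with the mean and SD of each bone in black. Timp2, Mmp14, Mmp2, Mmp12 and Adamtsl2 separate femur from calvaria, Mmp8 does so in the other direction, Timp1 shows 3 levels, and Mmp13 is lowest in frontal bone.

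The gelatinases cut denatured collagen and basement membrane collagen. Mmp2 was lower in calvaria, while Mmp9 did not pass. Mmp2 (gelatinase A; chromosome 8, 92827291 to 92853420), made by mesenchymal cells, had 299, 222 and 268 CPM in femur 1, 2 and 4. Frontal 1, 2 and 4 had 68.6, 92.8 and 67.7 CPM and parietal 2 and 4 had 71.2 and 75.2 CPM. The groups did not overlap, and Mmp2 was 3.51-fold lower in calvaria (log2 difference -1.81 ± 0.14, adjusted p 8.85e-07).

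Mmp9 (gelatinase B; chromosome 2, 164940780 to 164955850), known from osteoclasts and neutrophils, had 245, 394 and 801 CPM in femur 1, 2 and 4. It had 553, 697 and 551 CPM in frontal 1, 2 and 4, and 480 and 482 CPM in parietal 2 and 4. Femur libraries covered a wider range than all calvarial libraries and enclosed them. The log2 difference of 0.16 ± 0.31 did not pass (adjusted p 0.679). Without femur 4, the highest library, it was 0.75 with an adjusted p of 0.00502.

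Among membrane-type enzymes, which act at the cell surface, 3 of the 5 tested were lower in calvaria (Mmp14, Mmp16 and Mmp17). Mmp14 (chromosome 14, 54431612 to 54445364) cuts collagen around cells and activates the precursor of Mmp2. Its level was 431, 415 and 397 CPM in femur 1, 2 and 4, 77.5, 90.2 and 63.7 CPM in frontal 1, 2 and 4, and 77.1 and 71.5 CPM in parietal 2 and 4. Levels were tight within each bone and far apart between femur and calvaria, where Mmp14 was 5.46-fold lower (log2 difference -2.45 ± 0.12, adjusted p 5.44e-08).

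Mmp16, another transmembrane type, had 29.2, 25.5 and 18.8 CPM in femur 1, 2 and 4, 5.26, 11.5 and 5.34 CPM in frontal 1, 2 and 4, and 13.1 and 13.4 CPM in parietal 2 and 4. Calvarial libraries were all below femur, and its log2 difference was -1.29 ± 0.25 (adjusted p 0.000818). For Mmp17, which is held by a lipid anchor, femur 1, 2 and 4 had 3.27, 3.02 and 2.68 CPM, frontal 1, 2 and 4 had 0.837, 1.34 and 0.281 CPM, and parietal 2 and 4 had 1.07 and 0.582 CPM. It was lower in every calvarial library, by 3.47-fold (log2 difference -1.79 ± 0.41, adjusted p 0.00256).

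Mmp23 had 23.0, 13.2 and 11.4 CPM in femur 1, 2 and 4, 7.89, 11.8 and 9.97 CPM in frontal 1, 2 and 4, and 11.1 and 11.7 CPM in parietal 2 and 4. The bones overlapped, and the log2 difference of -0.56 ± 0.24 had an adjusted p of 0.0572. It passed with DESeq2 (adjusted p 0.0489), without the filter on low counts (0.0434), without femur 4 (0.0200) and without frontal 2 (0.0381). Of the other 2 membrane types, Mmp15 had 51 counts and Mmp24 had 5.

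The 4 members known from blood cells did not move together: Mmp8 was higher in calvaria, Mmp12 was lower, and Mmp9 and Mmp25 did not pass. Mmp12 (macrophage elastase; chromosome 9, 7344381 to 7369499) had 33.9, 32.0 and 29.5 CPM in femur 1, 2 and 4, 2.15, 3.35 and 4.21 CPM in frontal 1, 2 and 4, and 5.20 and 3.59 CPM in parietal 2 and 4. It was 8.39-fold lower in calvaria with no overlap (log2 difference -3.07 ± 0.20, adjusted p 3.06e-07). Its exons share 157 bases with Mmp1b on the other strand. Over the same libraries, 5 of 7 monocyte and macrophage markers were higher in calvaria and none was lower. Their summed levels were 2867 to 5528 CPM in femur and 11765 to 17471 CPM in calvaria. Lyz2 held most of these sums, with means of 3612 and 12299 CPM of 4253 and 13782. Means in femur and calvaria were 113 and 134 CPM for Csf1r, 46.2 and 55.1 for Mrc1, and 47.4 and 76.9 for Adgre1. They were 97.1 and 145 CPM for Cd68, 65.5 and 180 for Ccr2, and 271 and 892 for Ly6c2.

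Mmp25 (leukolysin, a lipid-anchored enzyme of leukocytes) had 4.64, 12.7 and 12.8 CPM in femur 1, 2 and 4, 26.4, 14.7 and 16.7 CPM in frontal 1, 2 and 4, and 8.56 and 4.56 CPM in parietal 2 and 4. Frontal libraries were the highest and the parietal ones lay within the femur range or just under it, so that calvaria as a whole overlapped femur (log2 difference 0.13 ± 0.33, adjusted p 0.75).

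Set against the neutrophil genes of the same library, none of which is a member, Mmp8 and Mmp9 differed. Mmp8 came to 10.7 ± 2.1 CPM per 1000 CPM of the 11 neutrophil genes in femur (SD, n = 3) and to 14.9 ± 2.0 in calvaria (SD, n = 5), with ranges of 8.41 to 12.5 and 12.6 to 18.2. Mmp9 came to 14.3 ± 2.9 in femur and 7.57 ± 2.48 in calvaria, with ranges of 12.1 to 17.6 and 5.35 to 11.8. These ratios are descriptions without a test, and they depend on the genes in the sum. S100a8 and S100a9 had means of 6073 and 7845 CPM of the 32194 in femur. In calvaria they had 22571 and 22665 of the 75724 CPM. Ltf and Ngp rose less, from means of 3271 and 8724 CPM in femur to 4700 and 12549 CPM in calvaria. The osteoclast markers, a further possible source of Mmp9, summed to 838 to 1666 CPM in femur and 1469 to 3602 CPM in calvaria, where 5 of 7 were higher.

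**Figure D4:**
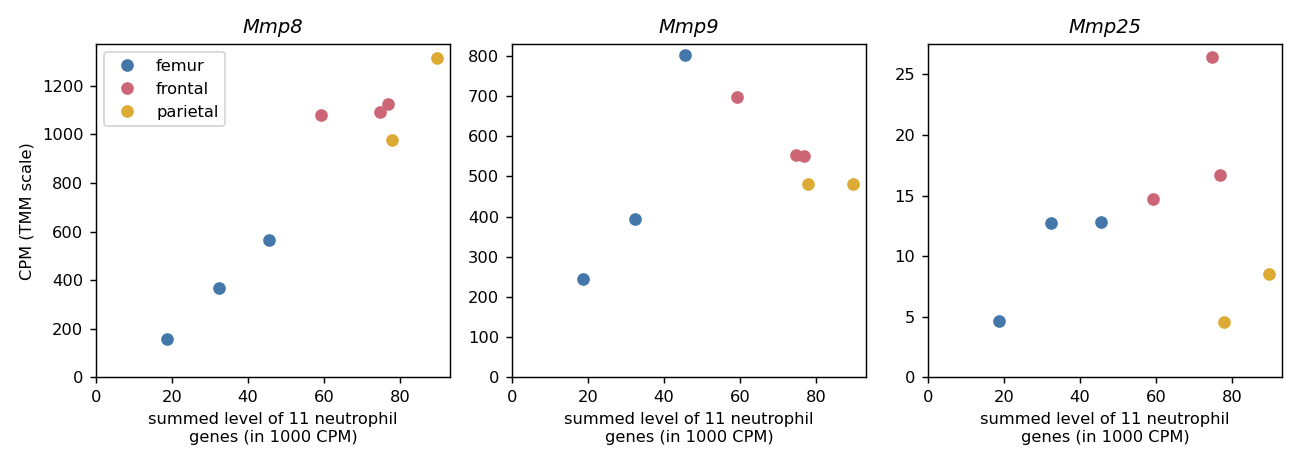
Level of Mmp8, Mmp9 and Mmp25 (CPM, y axis) against the summed level of 11 neutrophil genes (in units of 1000 CPM, x axis) in each library, with colour for the bone. Mmp8 is high where the neutrophil sum is high, femur 4 has the highest Mmp9, and the parietal libraries combine high neutrophil sums with Mmp25 of 8.56 and 4.56 CPM.

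Read composition was also described within each library, as shares of 1 total that depend on each other. Mmp13, Mmp8, Mmp9, Mmp14 and Mmp2 together held 96.4 to 99.0% of all counts of the 22 Mmp genes. Mmp13 held 57.8 ± 3.2% of them in femur, 42.2 ± 4.9% in frontal and 56.9 ± 5.4% in parietal bone (SD, n = 3, 3 and 2). Mmp8 held 9.09 ± 3.73%, 33.4 ± 4.1% and 27.1 ± 5.4%, and Mmp14 held 11.2 ± 2.7%, 2.34 ± 0.38% and 1.76 ± 0.08%. The share of Mmp9 was 11.9 ± 4.5%, 18.1 ± 1.4% and 11.4 ± 0.1%, so it was not lower in frontal bone than in femur. The ratio of Mmp13 to Mmp14 in CPM, which does not depend on library scaling, was 4.63, 4.60 and 6.82 in femur 1, 2 and 4. It was 13.7, 18.6 and 23.3 in frontal 1, 2 and 4 and 29.2 and 35.7 in parietal 2 and 4, so every calvarial library was above every femur library. The 50 members took 0.375 to 0.718% of all gene counts.

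**Figure D5:**
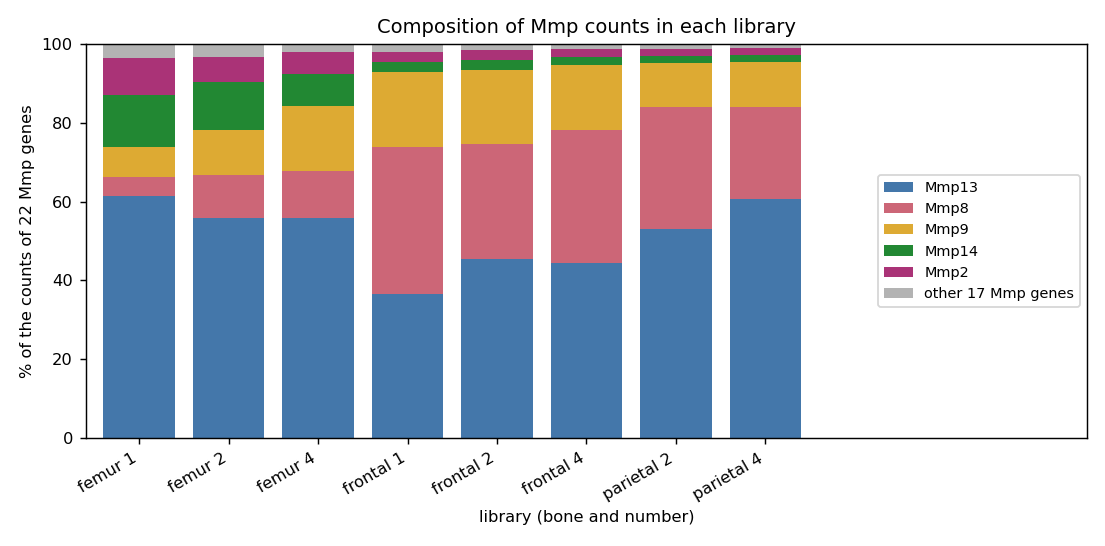
Share of the counts of the 22 Mmp genes (percent, y axis) held by Mmp13, Mmp8, Mmp9, Mmp14, Mmp2 and the other 17 genes in each of the 8 libraries (x axis). The Mmp14 and Mmp2 segments are wide in femur and narrow in calvaria, where Mmp8 takes 23.3 to 37.4%.

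Of the 4 inhibitors, 3 were lower in calvaria and Timp4 was higher. Timp2 (chromosome 11, 118301069 to 118355740), which blocks many metalloproteinases and also takes part with Mmp14 in the activation of Mmp2, had 1312, 1263 and 998 CPM in femur 1, 2 and 4. Frontal 1, 2 and 4 had 196, 221 and 211 CPM and parietal 2 and 4 had 193 and 205 CPM. Calvarial libraries were alike and well below femur, by 5.83-fold (log2 difference -2.54 ± 0.12, adjusted p 4.40e-08). Timp2 and Mmp14 kept a similar proportion: their CPM ratio was 2.87 ± 0.31 in femur, 2.76 ± 0.48 in frontal and 2.69 ± 0.26 in parietal bone, differing by less than the SD between libraries.

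Timp1 (X chromosome, 20870166 to 20874735) blocks most secreted metalloproteinases and lies inside the gene Syn1. It had 131, 120 and 119 CPM in femur 1, 2 and 4, 26.1, 35.3 and 28.9 CPM in frontal 1, 2 and 4, and 57.6 and 53.7 CPM in parietal 2 and 4. The 3 bones did not overlap, with femur highest and frontal lowest. The log2 difference from the shared femur libraries was -2.03 ± 0.14 (adjusted p 8.85e-07) for frontal and -1.15 ± 0.16 (adjusted p 8.49e-05) for parietal bone.

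Timp3 (chromosome 10, 86300372 to 86349506) binds to the matrix and also blocks Adamts4 and Adamts5. Its level was 447, 400 and 448 CPM in femur 1, 2 and 4, 168, 206 and 182 CPM in frontal 1, 2 and 4, and 176 and 174 CPM in parietal 2 and 4. Every calvarial library was lower, by 2.40-fold overall (log2 difference -1.26 ± 0.11, adjusted p 1.83e-06). Its exons share 1733 bases with Syn3 on the other strand, and the strand setting of the counting is not given in the sources used here.

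Timp4, the least abundant inhibitor, had 1.72, 0.755 and 0.467 CPM in femur 1, 2 and 4, 3.11, 2.01 and 2.11 CPM in frontal 1, 2 and 4, and 2.60 and 2.81 CPM in parietal 2 and 4. It rested on 147 counts in all, and the groups lay close to each other without overlap. The log2 difference was 1.46 ± 0.43 (adjusted p 0.0109). Without femur 2 the adjusted p was 0.0536, and its exons share 90 bases with Syn2 on the other strand.

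Per kilobase of exon, the order of levels changed between bones. In femur it was Mmp13 (825 CPM per kilobase), Timp2 (306), Mmp8 (150), Timp1 (139) and Mmp9 (136). In frontal bone Mmp13 (528) and Mmp8 (453) led, ahead of Mmp9 (170) and Timp2 (53.7), and in parietal bone Mmp13 (899), Mmp8 (473), Mmp9 (136) and Timp1 (62.7). The femur values of Mmp8 and Mmp9 spread widely over libraries, so the order of Mmp8, Timp1 and Mmp9 there is within that spread.

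Of the remaining Mmp genes, Mmp19, Mmp11, Mmp10 and Mmp28 were tested. Mmp19 had 18.9, 16.3 and 14.7 CPM in femur 1, 2 and 4, 10.04, 8.22 and 5.62 CPM in frontal 1, 2 and 4, and 6.12 and 4.56 CPM in parietal 2 and 4. It was lower in every calvarial library (log2 difference -1.34 ± 0.21, adjusted p 0.000177), and its exons share 1001 bases with genes on the other strand.

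Mmp11 (stromelysin 3) had 1.38, 2.08 and 2.45 CPM in femur 1, 2 and 4, 5.26, 4.78 and 3.23 CPM in frontal 1, 2 and 4, and 6.65 and 1.75 CPM in parietal 2 and 4. Parietal 4 lay within the femur range. The log2 difference of 1.11 ± 0.42 passed narrowly (adjusted p 0.0389). It did not pass when any 1 of 6 libraries (femur 1, 2 or 4, frontal 1 or 2, or parietal 2) was left out (adjusted p 0.0528 to 0.301), or with limma-voom (0.101). Its exons share 155 bases with Chchd10 on the other strand.

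Mmp10 (stromelysin 2), with 69 counts in all, had 0.688, 1.98 and 2.92 CPM in femur 1, 2 and 4, 0, 0.191 and 0.421 CPM in frontal 1, 2 and 4, and 0.153 and 1.16 CPM in parietal 2 and 4. It was lower in calvaria (log2 difference -2.41 ± 0.71, adjusted p 0.0116) although parietal 4 overlapped femur, and without femur 4 the adjusted p was 0.0617. Mmp28 (epilysin) had 0.688, 0.944 and 1.28 CPM in femur 1, 2 and 4, 1.91, 0.860 and 0 CPM in frontal 1, 2 and 4, and 0.535 and 0.485 CPM in parietal 2 and 4. Its bones overlapped and it did not pass (log2 difference -0.50 ± 0.70, adjusted p 0.563).

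Among Adamts genes, none of the 14 tested was called higher in calvaria (background 29.6%). With the length and GC trend removed, Adamts9 (0.61, edgeR adjusted p 0.00919) and Adamts10 (1.01, adjusted p 0.000376) did pass as higher. Of the 5 tested enzymes that cut aggrecan or versican, the large proteoglycans of cartilage and soft matrix, 4 were lower (Adamts1, Adamts4, Adamts5 and Adamts15). Adamts1 (chromosome 16, 85793827 to 85803113), which cuts versican, had 520, 413 and 416 CPM in femur 1, 2 and 4, 98.7, 115 and 91.7 CPM in frontal 1, 2 and 4, and 64.4 and 91.6 CPM in parietal 2 and 4. Femur was above calvaria in every library, by 5.05-fold (log2 difference -2.34 ± 0.14, adjusted p 1.81e-07).

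Adamts4, an aggrecanase, had 125, 123 and 133 CPM in femur 1, 2 and 4, 37.6, 48.5 and 32.9 CPM in frontal 1, 2 and 4, and 39.6 and 35.2 CPM in parietal 2 and 4. Adamts5, the main aggrecanase of mouse cartilage, had 51.4, 43.4 and 46.8 CPM in femur 1, 2 and 4, 27.4, 25.5 and 21.9 CPM in frontal 1, 2 and 4, and 23.2 and 30.8 CPM in parietal 2 and 4. Neither overlapped between femur and calvaria, and the log2 differences were -1.72 ± 0.13 (adjusted p 8.90e-07) for Adamts4 and -0.86 ± 0.14 (adjusted p 0.00027) for Adamts5. Adamts9, named after its values were seen, cuts both proteoglycans and lay at 18.03 to 23.0 CPM in femur and 12.9 to 22.7 CPM in calvaria. The chondrocyte markers summed to 271 to 828 CPM in femur and 12.5 to 21.1 CPM in calvaria, with 4 of 5 tested lower (background 31.4%). Col2a1 held most of the femur sum, with a mean of 557 of 593 CPM, beside 6.37 of 16.0 CPM in calvaria.

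All 3 procollagen N-proteinases, which remove the amino-terminal propeptide from fibrillar procollagens, were lower in calvaria. Adamts2 (chromosome 11, 50602084 to 50807573) had 180, 121 and 152 CPM in femur 1, 2 and 4, 46.4, 89.4 and 42.5 CPM in frontal 1, 2 and 4, and 60.3 and 55.3 CPM in parietal 2 and 4. Adamts14 had 33.2, 13.6 and 11.6 CPM in femur 1, 2 and 4, 3.11, 2.49 and 1.83 CPM in frontal 1, 2 and 4, and 1.61 and 1.84 CPM in parietal 2 and 4. Both were lower in every calvarial library, Adamts2 by 2.57-fold (log2 difference -1.36 ± 0.22, adjusted p 0.000234) and Adamts14 by 9.21-fold (-3.20 ± 0.35, adjusted p 1.18e-05). Adamts3 differed by -1.04 ± 0.28 (adjusted p 0.0069). The fibrillar procollagen genes Col1a1, Col1a2 and Col3a1, named after their values were seen, were lower as well, with log2 differences of -2.31, -2.60 and -2.52.

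Of the 6 other tested Adamts genes, 3 were lower (Adamts7, Adamts17 and Adamts18). Adamts18 had 3.95, 4.72 and 3.38 CPM in femur 1, 2 and 4, 0, 0.382 and 0.421 CPM in frontal 1, 2 and 4, and 0.688 and 0.679 CPM in parietal 2 and 4. No calvarial library came near the femur range, and the log2 difference was -3.19 ± 0.44 (adjusted p 6.80e-05) on 125 counts. Adamts6, Adamts10 and Adamts12 did not pass, with log2 differences of -0.17, -0.15 and 0.71. Adamts7 no longer passed without femur 4 (adjusted p 0.0924) or with the length and GC trend removed (0.262).

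The member with the largest difference of all 37 was Adamtsl2 (chromosome 2, 27079379 to 27108981), a microfibril-associated protein whose gene is mutated in geleophysic dysplasia, a human skeletal disorder. It had 90.4, 71.2 and 96.8 CPM in femur 1, 2 and 4. Frontal 1, 2 and 4 had 0.239, 1.15 and 0.562 CPM and parietal 2 and 4 had 0.306 and 0.485 CPM. Femur libraries were high and calvarial ones at 1.15 CPM or less, a 163-fold difference (log2 difference -7.35 ± 0.27, adjusted p 1.48e-08). The calvarial side rests on 27 counts in all, beside 2110 in femur.

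Adamtsl1 had 8.25, 7.74 and 12.5 CPM in femur 1, 2 and 4, 1.31, 0.765 and 1.40 CPM in frontal 1, 2 and 4, and 1.45 and 3.98 CPM in parietal 2 and 4. It was lower in every calvarial library (log2 difference -2.44 ± 0.34, adjusted p 6.86e-05). Adamtsl4, another microfibril-associated protein, had 4.47, 4.44 and 3.50 CPM in femur 1, 2 and 4, 2.63, 2.87 and 1.54 CPM in frontal 1, 2 and 4, and 1.53 and 2.04 CPM in parietal 2 and 4. Its calvarial values were all below femur (log2 difference -1.003 ± 0.28, adjusted p 0.00897), but with the length and GC trend removed the difference was -0.08 (adjusted p 0.814).

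For Adamtsl5, femur 1, 2 and 4 had 2.92, 2.93 and 2.92 CPM, frontal 1, 2 and 4 had 0.717, 1.24 and 0.983 CPM, and parietal 2 and 4 had 0.688 and 0.776 CPM. Femur values were nearly equal and all above calvaria (log2 difference -1.76 ± 0.33, adjusted p 0.000612). Adamtsl3 did not pass (0.84 ± 0.65, adjusted p 0.285).

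Frontal and parietal bone were each compared with the same 3 femur libraries, so these comparisons are not independent. Against femur, 24 members were lower in frontal bone (background 28.5%) and 2 were higher (background 27.2%). In parietal bone 22 were lower (background 28.6%) and 2 were higher (background 27.1%). The median over the 37 tested members was -1.34 for frontal and -1.30 for parietal bone, beside 0.02 and 0.01 over all genes. Mmp8 and Timp4 were the 2 higher members in each case. Adamtsl2 differed by -6.94 in frontal and -7.75 in parietal bone, and Mmp14 by -2.42 and -2.48.

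Between frontal and parietal bone, 2 members were called. Mmp25 was higher in frontal bone, against a background of 3.91% of genes, with a log2 difference of 1.54 ± 0.42 (adjusted p 0.0492). Timp1 was lower in frontal bone, against a background of 3.29%, with -0.89 ± 0.15 (adjusted p 0.0272). Their libraries did not overlap between the bones, as their values above show, and the counts of 1 up and 1 down are near the background. Mmp13 did not pass here (-0.77 ± 0.21, adjusted p 0.0521), although both parietal libraries were above all 3 frontal ones, and it passed with DESeq2 (adjusted p 0.00742), limma-voom (0.0357) and RLE scaling (0.0491). The osteoclast markers summed to 1469 to 2327 CPM in frontal and 3367 to 3602 CPM in parietal bone. Of them, 2 of 7 were lower in frontal bone (background 3.29%) and none higher. The osteoblast markers summed to 2104 to 12130 CPM in frontal and 6891 to 7539 CPM in parietal bone, also with 2 of 6 lower and none higher. The part of either cell type in the Mmp13 levels was not tested. Both calls were lost when certain single libraries were left out. Without frontal 1 the adjusted p was 0.179 for Mmp25 and 0.129 for Timp1, and edgeR called 0 of 15511 genes. With femur 2 left out the adjusted p was 0.0752 and 0.0581, and 2 genes were higher and 0 lower in frontal bone. These losses thus cover nearly all genes, not these members alone. Mmp25 also did not pass without frontal 4 (adjusted p 0.0674). With parietal 2 or parietal 4 left out, the log2 difference was 2.10 or 1.21 for Mmp25 and -0.81 or -0.89 for Timp1. With 1 parietal library left, that library is assumed to vary like the other bones.

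Genes that activate, bind or cut alongside these enzymes were also mostly lower in calvaria. Of 24 tested regulators, 16 were lower (background 31.4%) and 2 were higher (background 29.6%), with a median log2 difference of -0.89. The smallest p-values among those lower belonged to the proprotein convertases Pcsk6 (-4.41 ± 0.21) and Pcsk5 (-3.09 ± 0.19) and to Thbs2 (-2.78 ± 0.17), a matrix protein that clears metalloproteinases by endocytosis. Pcsk6 had 299 to 440 CPM in femur and 11.6 to 23.6 CPM in calvaria. The 2 higher genes were Bsg (0.51 ± 0.11), which encodes an inducer of metalloproteinases, and Serpine2 (0.55 ± 0.13), an inhibitor of serine proteases. Reck, the membrane-anchored inhibitor of metalloproteinases, was named after its values were seen and lay at -0.01 ± 0.16 (adjusted p 0.979).

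Of 15 tested substrate genes, 13 were lower (background 31.4%), none was higher (background 29.6%), and the median log2 difference was -2.31. Dmp1, Col1a1, Ibsp, Acan and Col2a1 are also among the osteocyte, osteoblast or chondrocyte markers, so this list in part repeats those. The smallest p-values belonged to Dmp1 (-6.04 ± 0.30), an acidic phosphoprotein of osteocytes, Ltbp1 (-3.69 ± 0.19), which binds latent TGF-beta, and Col5a1 (-2.24 ± 0.18), a chain of a fibrillar collagen. Ibsp, encoding bone sialoprotein, and Vwf, the substrate of Adamts13, were the 2 that did not pass (0.08 and -0.55).

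The 13 members not tested were Mmp1b, Mmp3, Mmp7, Mmp15, Mmp20, Mmp21, Mmp24, Mmp27, Adamts8, Adamts13, Adamts16, Adamts19 and Adamts20. Mmp7 (matrilysin) had 0 counts, which allows up to 0.0403 CPM over the 8 libraries, for counting error only. Mmp20, the enamel enzyme enamelysin, had 7 counts, Adamts13, which cuts von Willebrand factor, had 26, and Adamts8 had 34. The fit without a filter on low counts tested 12 of the 13, all but Mmp7. It called Adamts8 (edgeR adjusted p 3.45e-05) and Mmp3 (stromelysin 1; adjusted p 0.00677) lower in calvaria, both named after their values were seen. Adamts8 had 0.472 to 2.10 CPM in femur and 0 to 0.239 CPM in calvaria, and Mmp3 had 14 of its 16 counts in femur.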

How the data were processed

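The authors deposited whole-number read counts per gene, used here for every value, and a filtered copy and a scaled table that were not used. Per the submitters' processing notes, STAR 2.5.2a was among the tools, with GRCm38.p3 and mm10 as builds. For the counting, the tool, annotation and strand setting were not given in the sources used here, so the 13 members that share exon bases with another gene are uncertain. Per the labels' protocols, paired-end libraries were prepared by Nextera XT. The members and lists were chosen with earlier results of these data known.

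From the 43438 deposited rows, 92 spike-in rows were dropped. Counts were filtered by filterByExpr (edgeR 4.0.16, R 4.3.3), scaled by TMM and fitted with a robust quasi-likelihood model of 3 bones over 8 libraries (5 residual degrees of freedom, biological coefficient of variation 18.6%). SE is the log2 fold change divided by the root of F. Genes were matched to GENCODE M21. The fit was tested on simulated data. Named members were, by rule, the tested collagenases, gelatinases, membrane types, blood-cell members and Timp genes, then within the other Mmp, the Adamts and the Adamtsl genes the 4 most abundant and up to 2 called each way with the largest changes, and every member called between frontal and parietal bone. Alternatives were RLE scaling, library size alone, no filter, DESeq2 1.42.0, voom of limma 3.58.1, removal of a length and GC trend, the library number as a block, and leaving out each library.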

Additional observations from a re-analysis of the deposited data

Results flagged for a closer look

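Each of 2 members was called between the 2 calvarial bones by the test of that difference itself. Neither call held under every alternative. The counts, 1 higher and 1 lower of 37 tested, are near the background of 3.91% and 3.29% of all genes tested. Mmp25 had a log2 difference of 1.54 for frontal minus parietal bone (edgeR adjusted p 0.0492), and all 3 frontal libraries were above both parietal ones. Timp1 had a log2 difference of -0.89 (adjusted p 0.0272), with all 3 frontal libraries below both parietal ones. No bone had 4 libraries, so single outlying libraries were not tested for.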

How the results depend on the processing

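Of the 27 members called between calvaria and femur, 21 passed in the same direction under every alternative, as did 20 of 26 for frontal, 14 of 24 for parietal bone against femur, and 0 of 2 for frontal against parietal bone. Members called higher numbered 3, 2, 2 and 1 for these 4 comparisons. With the length and GC trend removed they numbered 5, 5, 4 and 0. Genes called higher then numbered 4515, 4318, 3945 and 46 of 15511, beside 4596, 4226, 4199 and 607. Members lower than in femur then numbered 23, 21 and 16, beside 24, 24 and 22. In frontal against parietal bone 0 members were lower (1 higher and 7 lower at an unadjusted edgeR p under 0.05). Genes called lower then numbered 4485, 4248, 3835 and 47, beside 4868, 4413, 4434 and 511. That setting turned Adamts10 to 1.01 for calvaria and 0.89 for parietal bone against femur, and Adamts9 to 0.61 for calvaria. Each passed as higher (edgeR adjusted p 0.000376, 0.0039 and 0.00919), and the cause was not tested. Against femur, DESeq2 and library size alone each gave 4 members higher in frontal bone, beside 4075 of 15506 and 4936 of 15511 genes. Between frontal and parietal bone, library size alone gave 0 higher. DESeq2 gave 2 higher and 2 lower of 23 members tested, beside 1187 and 1038 of 11898 genes. No filter gave 2 higher and 3 lower of 49 members, beside 1163 and 741 of 32437 genes. RLE scaling and limma-voom gave 2 lower each of 37 members, beside 519 and 801 of 15511 genes. Without the filter, 27 of 49 members were lower in calvaria than in femur, beside 4865 of 32437 genes. Library size alone moved the median of all genes by 0.09 for calvaria and 0.13 for frontal bone against femur, and gave 773 genes higher and 249 lower in frontal than in parietal bone, beside 607 and 511.

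Leaving out 1 library gave 1 to 3 members higher and 23 to 25 lower for calvaria, 1 to 3 and 22 to 26 for frontal, and 1 to 3 and 19 to 23 for parietal bone against femur, and 0 to 2 and 0 to 3 for frontal against parietal bone. Correlations of deviations from the bone mean ran from -0.103 to 0.145 for same-numbered libraries and from -0.145 to 0.172 for the others. With 2 or 3 libraries per bone, this check cannot tell whether a number marks a shared animal. With the library number as a block, 2 members were higher and 24 lower for calvaria, without Mmp11 (adjusted p 0.0621), and edgeR called 0 members and 0 genes between frontal and parietal bone (2 members higher and 5 lower at an unadjusted p under 0.05). The SE of Mmp10, on 69 counts, was 0.71, and that of Adamtsl5, on 116, was 0.33; whether depth sets these was not tested.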
